A study of Homo sapiens with 4 samples.

Results

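The solute carrier (SLC) genes were examined for cassette exon use in MDA-LM2 cells transfected with the SSE mimetic, an RNA, or with a scrambled oligo, both by lipofection. MDA-LM2 is a lung-metastatic subline of the human breast cancer line MDA-MB-231. Members were chosen by symbol and by depth: protein-coding genes named SLC followed by a digit, with at least 1 skipped exon that had 10 or more isoform-specific reads in each group. Of 257 SLC genes with a cassette event in both groups, 66 met this rule. Their events numbered 281 of 45977 in all, and came to 246 separate skipped exons of 39120. The SSE mimetic group and the scrambled group had 2 samples each, and the deposited tables give each group as 1 pooled read set. No replicate spread can therefore be given for any value, and no test across samples was possible.

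Solute carriers are membrane proteins that move small molecules down their gradients or by coupling to ions that flow with or against them. Cells use them to take up sugars, amino acids, ions, metals, nucleosides and vitamins, to export lactate and other products, and to exchange metabolites across the membranes of mitochondria and the Golgi. In tumour cells, glucose, lactate and amino acid carriers are known for feeding growth, and acid extruders for keeping the cell interior alkaline. A cassette exon is an internal exon that a mature transcript can keep or skip. Its use is given by MISO as percent spliced in (Ψ), here a fraction from 0 to 1 with a 95% credible interval. Reads from inside the exon or across its junctions count for inclusion, reads across the junction that bypasses it count for skipping, and shared reads fit both isoforms.

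The junctions of 3 exons are shown first. Only SLC44A1 among them was called as different between the pools. SLC4A7 and SLC39A8 were not called and were picked after their values were seen. The other called exon, in SLC26A2, is described below without its junctions. Each sequence comes from GENCODE release 29 transcripts, in the direction of the transcript. Capitals mark the 15 bases that belong to the skipped exon, and lower case the 15 bases of a neighbouring exon. For SLC44A1, which encodes a choline transporter-like protein, the exon is chr9:105299743-105299937 in hg38 on the plus strand. It is shown because it was called higher in SSE mimetic cells.
SLC44A1, into the exon: ttctgcattgggatgGCCCCTGCTGCCTTC
SLC44A1, out of the exon: AGTTGCTGGTATAAGggatttatttgtggc
SLC44A1, skipping junction: ttctgcattgggatgggatttatttgtggc

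For SLC4A7, which encodes a sodium bicarbonate cotransporter, the exon is chr3:27431298-27431669 on the minus strand. It is shown because its credible intervals were apart although its Bayes factor was under the criterion.
SLC4A7, into the exon: tgcttgaaaggaatgGGGAAGGCCTTTCAG
SLC4A7, out of the exon: TTGACTTAACTCCAGgtattttggcctctc
SLC4A7, skipping junction: tgcttgaaaggaatggtattttggcctctc

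For SLC39A8, which encodes an importer of zinc and manganese, the exon is chr4:102307436-102307605 on the minus strand. It is shown because Ψ differed as much as in any tested SLC exon while no read crossed its skipping junction.
SLC39A8, into the exon: caagtcattcagaagTTTGGGGATATGGAT
SLC39A8, out of the exon: CAACTTATTCCAGAGgcatttggatttgat
SLC39A8, skipping junction: caagtcattcagaaggcatttggatttgat

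Depth differed between the pools. Isoform-specific reads (inclusion plus skipping) over all events numbered 431105 in SSE mimetic cells and 2039336 in scrambled cells, where 1 read can count for several events. Reads that matched neither isoform differed less, at 34676430 in SSE mimetic cells and 53271172 in scrambled cells. The label of the cells was checked on 18 marker genes. In the best covered event, isoform-specific reads in SSE mimetic against scrambled cells were 164 against 995 for CD44, 16 against 102 for AXL, and 181 against 392 for LGALS1, genes that MDA-MB-231 cells are known to express. The luminal genes CDH1, ESR1, GATA3 and ELF3 had at most 5 in SSE mimetic cells and at most 8 in scrambled cells, and the blood and endothelial genes PTPRC, CD3E, CDH5 and VWF at most 11 in SSE mimetic cells and 18 in scrambled cells. The other 7 markers, VIM among them, had no event.

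Few SLC exons differed between the pools by the criteria used. Of the 246 exons, 102 had 10 or more isoform-specific reads in each group and were tested; they lie at 92 separate positions, because 19 of them overlap another tested exon and share its reads. Calls required a Bayes factor of 10 or more in the authors' table and a Ψ difference of 0.1 or more. In SSE mimetic cells, 2 SLC exons were called higher, in the sulfate transporter gene SLC26A2 and in SLC44A1. None was called lower, and 100 were not called. Over all 8228 tested exons, 254 were called higher (3.09%) and 73 lower (0.887%), so the SLC count lies near the background. Fisher's exact test on inclusion and skipping reads, adjusted over all tested exons by Benjamini-Hochberg, passed for 0 SLC exons, against 1.01% of all. At an unadjusted p under 0.05 it passed for 3 SLC exons, in SLC26A2, SLC44A1 and SLC4A7, against 5.51% of all. Those 3 exons were also the ones with credible intervals apart, against 5.86% of all. Fisher's test compares these libraries, not the conditions.

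**Figure D1:**
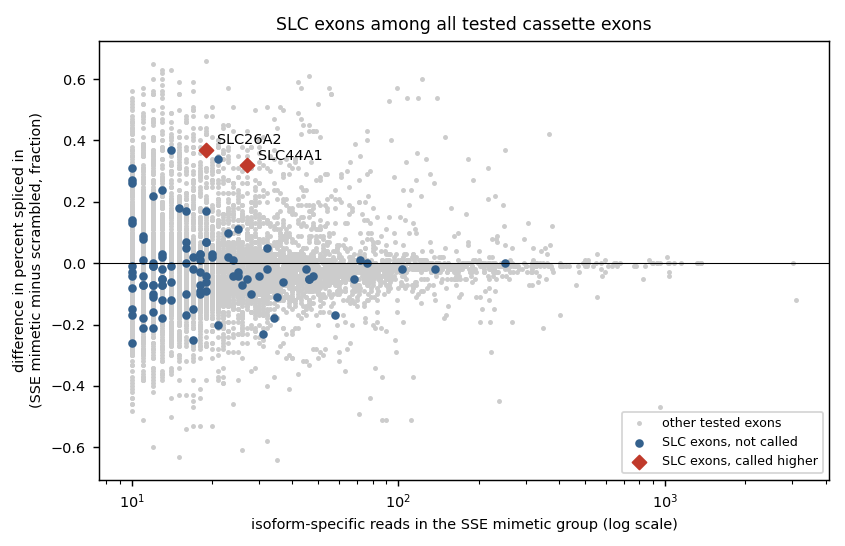
Difference in Ψ (SSE mimetic minus scrambled, y axis, fraction) against isoform-specific reads in the SSE mimetic pool (x axis, log scale) for the 8228 tested exons. Grey points are other exons, blue points SLC exons that were not called, and red diamonds the 2 SLC exons called higher; the spread of SLC differences, from -0.26 to 0.37, lies within that of the other exons.

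The SLC26A2 exon lies at chr5:149961993-149962272 on the plus strand, is 280 nt long and belongs to the 5′ UTR. SLC26A2 brings sulfate into cells and is known for the sulfation of cartilage proteoglycans. The exon had 15 inclusion, 4 skipping and 54 shared reads in SSE mimetic cells. In scrambled cells it had 16 inclusion, 23 skipping and 195 shared reads. Inclusion reads were thus nearly equal in number while skipping and shared reads were several times fewer in the SSE mimetic pool. Ψ was 0.54 (0.35 to 0.76) in SSE mimetic cells and 0.17 (0.10 to 0.27) in scrambled cells, a difference of 0.37. The authors' Bayes factor was 82.24, and the adjusted Fisher's exact p was 0.353. Reads that match neither isoform were taken to lie in the flanking introns, and their density gives an intron level, the number of inclusion reads an exon of that length would receive if it were covered like the introns. For SLC26A2 that level was 15.4 reads in SSE mimetic cells and 25.3 in scrambled cells, so the inclusion reads were 0.971 times the intron level in SSE mimetic cells and 0.633 times in scrambled cells. After that density was subtracted, a likelihood of the 2 isoforms recomputed from the deposited reads gave a difference of 0.129, which was not called. No inclusion read was then left in either pool, beside 4 skipping reads in SSE mimetic cells and 23 in scrambled cells. The part of intron reads in this difference was not tested further.

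The SLC44A1 exon is 195 nt long and belongs to a noncoding transcript, between a pair of coding exons. SLC44A1 transports choline, the precursor of phosphatidylcholine. It had 21 inclusion, 6 skipping and 8 shared reads in SSE mimetic cells. It had 43 inclusion, 51 skipping and 46 shared reads in scrambled cells. Most isoform-specific reads of this exon therefore counted for inclusion in the SSE mimetic pool, and less than 1 in 2 in the scrambled pool. The share of inclusion reads was 0.778 (exact binomial interval 0.577 to 0.914) in SSE mimetic cells and 0.457 (0.354 to 0.563) in scrambled cells. Ψ was 0.54 (0.35 to 0.74) in SSE mimetic cells and 0.22 (0.16 to 0.29) in scrambled cells, a difference of 0.32 with a Bayes factor of 44.84. The adjusted Fisher's exact p was 0.177. Inclusion reads were 3.85 times the intron level in SSE mimetic cells and 4.47 times in scrambled cells. After subtraction of the intron density the recomputed difference was 0.319, and it was still called. The length is 65 whole codons. Read in the frame of the upstream coding exon, the exon holds a stop codon that starts at its base 106.

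With the scrambled reads reduced in proportion to the number in the SSE mimetic pool, neither exon was called. The recomputed difference was then 0.348 with a Bayes factor of 7.79 for SLC26A2, and 0.312 with 7.05 for SLC44A1. All scrambled read classes of an exon were scaled by the same factor, which keeps their proportions. The sizes of the differences were therefore not tested by this step. What it shows is that the Bayes factors fell under 10 at the lower read number. The called ATP2C1 exon described below, which is not in an SLC gene, also fell under 10, to 6.57. The share of all tested exons still called with thinned reads is not given here. The loss can therefore not be read as particular to these exons.

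**Figure D2:**
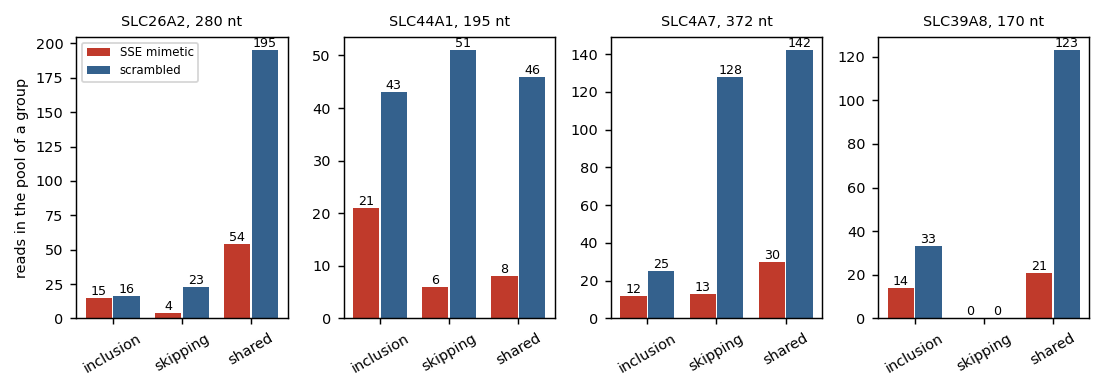
Reads (y axis) that count for inclusion, for skipping or for both isoforms in 4 SLC exons, in the SSE mimetic pool (red) and the scrambled pool (blue), with the number on each bar and a separate scale per panel. In SLC26A2 the inclusion bars are 15 in SSE mimetic cells and 16 in scrambled cells while the shared bars are 54 in SSE mimetic cells and 195 in scrambled cells; in SLC39A8 both skipping bars are 0.

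Outside the called exons, the 372 nt coding exon of SLC4A7 and the 170 nt coding exon of SLC39A8 had the highest Bayes factors; these and the other exons described below outside the rule for names were picked after their values were seen. SLC4A7 brings bicarbonate into the cell and is known as an acid extruder of breast cancer cells. Its exon had 12 inclusion, 13 skipping and 30 shared reads in SSE mimetic cells. It had 25 inclusion, 128 skipping and 142 shared reads in scrambled cells. Ψ was 0.15 (0.08 to 0.24) in SSE mimetic cells and 0.04 (0.03 to 0.06) in scrambled cells, a difference of 0.11 with a Bayes factor of 4.80. The exon was mostly skipped in each pool, and the adjusted Fisher's exact p was 0.0691. Its inclusion reads were 0.961 times the intron level in SSE mimetic cells and 0.823 times in scrambled cells, and after subtraction of the intron density, which left no inclusion read in either pool, the recomputed difference was 0.0122. The other 3 tested exons of SLC4A7 had Ψ from 0.71 to 0.93 in SSE mimetic cells and from 0.78 to 0.97 in scrambled cells, and all of their intervals overlapped.

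The SLC39A8 exon had 14 inclusion, 0 skipping and 21 shared reads in SSE mimetic cells. It had 33 inclusion, 0 skipping and 123 shared reads in scrambled cells. Ψ was 0.71 (0.44 to 0.93) in SSE mimetic cells and 0.34 (0.24 to 0.47) in scrambled cells, and these intervals met between 0.44 and 0.47. The difference of 0.37 equals that of SLC26A2, but the Bayes factor was 4.98. With no skipping read in either pool, the estimates turn on shared reads, of which there were 1.5 per inclusion read in SSE mimetic cells and 3.73 in scrambled cells.

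By what the carriers move, each of 7 classes had at most 1 exon called. Among all tested exons 3.09% were called higher and 0.887% lower. Counts of 0 or 1 in classes of this size cannot be told from that background. Classes follow the SLC family number, so a few members move something else than their class name says. Amino acid and peptide transporters had 26 tested exons, the most of any class, with 0 called and a median difference of -0.025. SLC38A1, a glutamine transporter, had a 115 nt 5′ UTR exon at a Ψ of 0.97 (0.90 to 1.0) in SSE mimetic cells and 0.99 (0.97 to 1.0) in scrambled cells. Another 5′ UTR exon of that gene, of 123 nt, was mostly skipped, at 0.10 (0.02 to 0.25) in SSE mimetic cells and 0.08 (0.04 to 0.12) in scrambled cells, with 1 inclusion and 16 skipping reads in SSE mimetic cells against 13 and 124 in scrambled cells. SLC3A2 encodes the heavy chain that carries several amino acid transporters to the cell surface. A 124 nt exon of this gene, classed as 5′ UTR, lies between exons that are coding in annotated transcripts. Read in the frame of the upstream exon, it holds a stop codon that starts at its base 34. It was at 0.05 (0.01 to 0.12) in SSE mimetic cells and 0.03 (0.01 to 0.06) in scrambled cells. Skipping reads numbered 22 in SSE mimetic cells and 52 in scrambled cells. Inclusion reads were 0.205 times the intron level in SSE mimetic cells and 0.224 times in scrambled cells. The 93 nt coding exon of SLC3A2 at chr11:62871577-62871669 was at 0.58 (0.32 to 0.85) in SSE mimetic cells and 0.31 (0.17 to 0.47) in scrambled cells. It rests on 10 isoform-specific reads in SSE mimetic cells and 17 in scrambled cells. The 187 nt exon of SLC43A3, a purine nucleobase carrier in an amino acid family, was at 0.74 (0.50 to 0.96) in SSE mimetic cells and 0.97 (0.90 to 1.0) in scrambled cells. No skipping read was among its 31 isoform-specific reads in SSE mimetic cells and 148 in scrambled cells. A 637 nt exon of SLC38A6 in a transcript marked for decay was at 0.87 (0.68 to 0.99) in SSE mimetic cells and 0.91 (0.76 to 0.98) in scrambled cells. It had no skipping read in either pool and few shared reads, 3 in SSE mimetic cells and 13 in scrambled cells. Inclusion reads were 1.65 times the intron level in SSE mimetic cells and 2.55 times in scrambled cells.

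Sugar and carboxylate transporters had 16 tested exons, 0 called and a median difference of -0.005. SLC2A1, the GLUT1 glucose transporter, had a 163 nt coding exon at 0.98 (0.95 to 1.0) in SSE mimetic cells and 1.0 (0.99 to 1.0) in scrambled cells. All of its 103 isoform-specific reads in SSE mimetic cells and 553 in scrambled cells counted for inclusion. A second SLC2A1 exon, of 96 nt, was at 0.97 in each pool, from 76 inclusion reads in SSE mimetic cells and 112 in scrambled cells. Those reads were 81.6 times the intron level in SSE mimetic cells and 58.3 times in scrambled cells. These GLUT1 exons are thus among the most firmly measured of the list, and neither shows skipping. At the other end, a 57 nt coding exon of SLC37A2, a sugar phosphate exchanger, had 0 inclusion reads among 20 isoform-specific reads in SSE mimetic cells and 0 among 58 in scrambled cells. Its Ψ was 0.04 (0.00 to 0.15) in SSE mimetic cells and 0.02 (0.00 to 0.07) in scrambled cells.

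Inorganic ion exchangers and cotransporters had 12 tested exons, with SLC26A2 the 1 called and a median difference of -0.04. A 59 nt exon of the phosphate transporter gene SLC20A1, found in a transcript marked for decay, was at 0.14 (0.07 to 0.24) in SSE mimetic cells and 0.18 (0.13 to 0.23) in scrambled cells. It had 8 inclusion and 22 skipping reads in SSE mimetic cells against 47 and 113 in scrambled cells. Skipping was thus seen directly in each pool, and the inclusion shares were 0.267 in SSE mimetic cells and 0.294 in scrambled cells. A 393 nt 5′ UTR exon of SLC8B1, the mitochondrial sodium calcium exchanger, was at 0.94 (0.84 to 1.0) in SSE mimetic cells and 0.99 (0.95 to 1.0) in scrambled cells. A 1316 nt exon of SLC12A4, a potassium chloride cotransporter, is annotated only in a noncoding transcript that retains an intron. It was at 0.75 (0.48 to 0.93) in SSE mimetic cells and 0.93 (0.78 to 1.0) in scrambled cells. No skipping read was found in either pool. Inclusion reads were 1.27 times the intron level in SSE mimetic cells and 1.72 times in scrambled cells.

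Metal ion transporters had 11 tested exons, 0 called and a median difference of -0.05. Most are zinc carriers. SLC39A6 had a 798 nt coding exon at 0.93 (0.80 to 1.0) in SSE mimetic cells and 0.98 (0.95 to 1.0) in scrambled cells. SLC39A7, which releases zinc from the endoplasmic reticulum, was at 0.66 (0.47 to 0.89) in SSE mimetic cells and 0.83 (0.68 to 0.96) in scrambled cells. In SLC39A9, a 198 nt coding exon was at 0.67 (0.38 to 0.92) in SSE mimetic cells and 0.92 (0.80 to 0.99) in scrambled cells. SLC30A9 was at 0.73 (0.46 to 0.94) in SSE mimetic cells and 0.93 (0.82 to 0.99) in scrambled cells, and SLC30A5 at 0.83 (0.64 to 0.95) in SSE mimetic cells and 0.93 (0.86 to 0.97) in scrambled cells. These 5 are the best covered exons of the class. For all of them the intervals overlapped and the Bayes factor was at most 1.22. SLC39A6 and SLC39A7 had no skipping read in either pool, so their inclusion shares could not differ. The share differed by 0.00602 for SLC30A9, by -0.0501 for SLC39A9 and by -0.0268 for SLC30A5. SLC39A1, another zinc importer, had a 131 nt coding exon at 0.67 (0.37 to 0.95) in SSE mimetic cells and 0.45 (0.34 to 0.60) in scrambled cells. A 293 nt 5′ UTR exon of SLC39A11 was at 0.79 (0.51 to 0.98) in SSE mimetic cells and 0.55 (0.29 to 0.83) in scrambled cells. Of the 11 exons, Ψ was lower in SSE mimetic cells in 7, higher in 3 (SLC39A1, SLC39A8 and SLC39A11) and equal in 1.

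Mitochondrial carriers of the SLC25 family had 14 tested exons, 0 called and a median difference of -0.065. SLC25A3 imports phosphate for ATP synthesis, and its 111 nt coding exon had 137 inclusion reads in SSE mimetic cells and 706 in scrambled cells, with no skipping read. Its Ψ was 0.98 (0.95 to 1.0) in SSE mimetic cells and 1.0 (0.99 to 1.0) in scrambled cells. A 638 nt exon of SLC25A44 was at 0.77 (0.57 to 0.98) in SSE mimetic cells and 0.88 (0.75 to 0.96) in scrambled cells.

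Nucleotide sugar and nucleoside transporters had 11 tested exons, 0 called and a median difference of -0.05. SLC29A1 takes up nucleosides and nucleoside drugs. A 5′ UTR exon of it with 3 alternative starts and 1 shared end was mostly skipped. The 243 nt form had 7 inclusion and 16 skipping reads in SSE mimetic cells, against 27 and 173 in scrambled cells. Its Ψ was 0.16 (0.07 to 0.29) in SSE mimetic cells and 0.06 (0.04 to 0.08) in scrambled cells, with a Bayes factor of 0.69, and its inclusion reads were 0.749 times the intron level in SSE mimetic cells and 1.35 times in scrambled cells. The 107 nt form was at 0.14 (0.04 to 0.29) in SSE mimetic cells and 0.07 (0.05 to 0.11) in scrambled cells. The forms share their skipping reads and are not separate evidence. A 93 nt noncoding exon of SLC35B1 had 0 inclusion and 24 skipping reads in SSE mimetic cells, against 2 and 75 in scrambled cells.

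Vitamin, lipid and organic ion transporters had 11 tested exons, with SLC44A1 the 1 called and a median difference of -0.02. SLC22A5 takes up carnitine, and a 5924 nt exon of a noncoding transcript of it had the same Ψ, 0.97, in each pool, from 250 inclusion reads in SSE mimetic cells and 382 in scrambled cells. Those reads were 1.29 times the intron level in SSE mimetic cells and 1.44 times in scrambled cells. SLC19A3 takes up thiamine. Its 523 nt coding exon was at 0.91 (0.72 to 0.99) in SSE mimetic cells and 0.57 (0.30 to 0.90) in scrambled cells, from 21 inclusion reads in SSE mimetic cells, 12 in scrambled cells and no skipping read. This was the third largest difference of the tested SLC exons, 0.34, with a Bayes factor of 1.97. Its inclusion reads were 1.94 times the intron level in SSE mimetic cells and 0.843 times in scrambled cells. The 829 nt coding exon of the same gene differed the other way, at 0.75 (0.38 to 0.98) in SSE mimetic cells and 0.85 (0.62 to 0.98) in scrambled cells, a difference of -0.10 with a Bayes factor of 0.56. The last tested exon lies in SLC2A4RG, which encodes a regulator of a glucose transporter gene and matches the symbol rule without being a transporter.

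**Figure D3:**
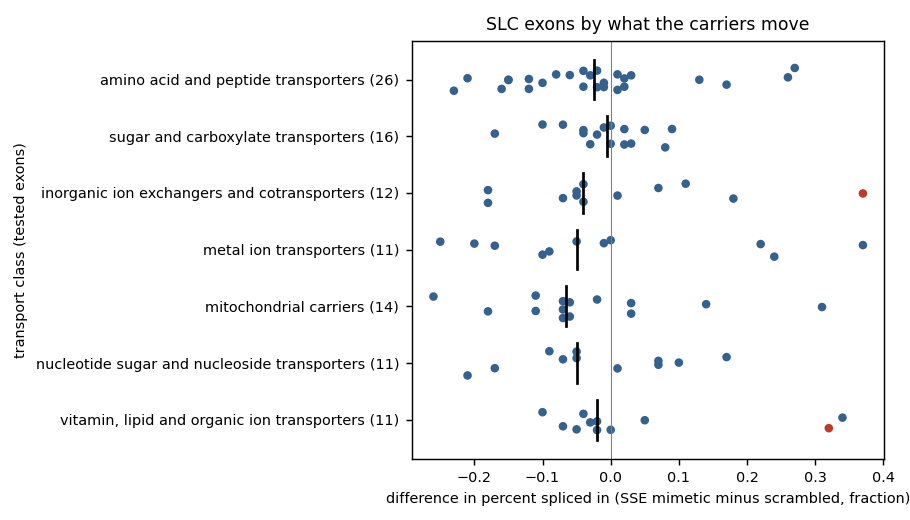
Difference in Ψ (SSE mimetic minus scrambled, x axis, fraction) for the tested exons of 7 transport classes, with the number of exons in brackets. Each point is an exon, red where called, the black line marks the class median, and vertical scatter within a row has no meaning; the medians lie between -0.065 and -0.005.

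**Figure D4:**
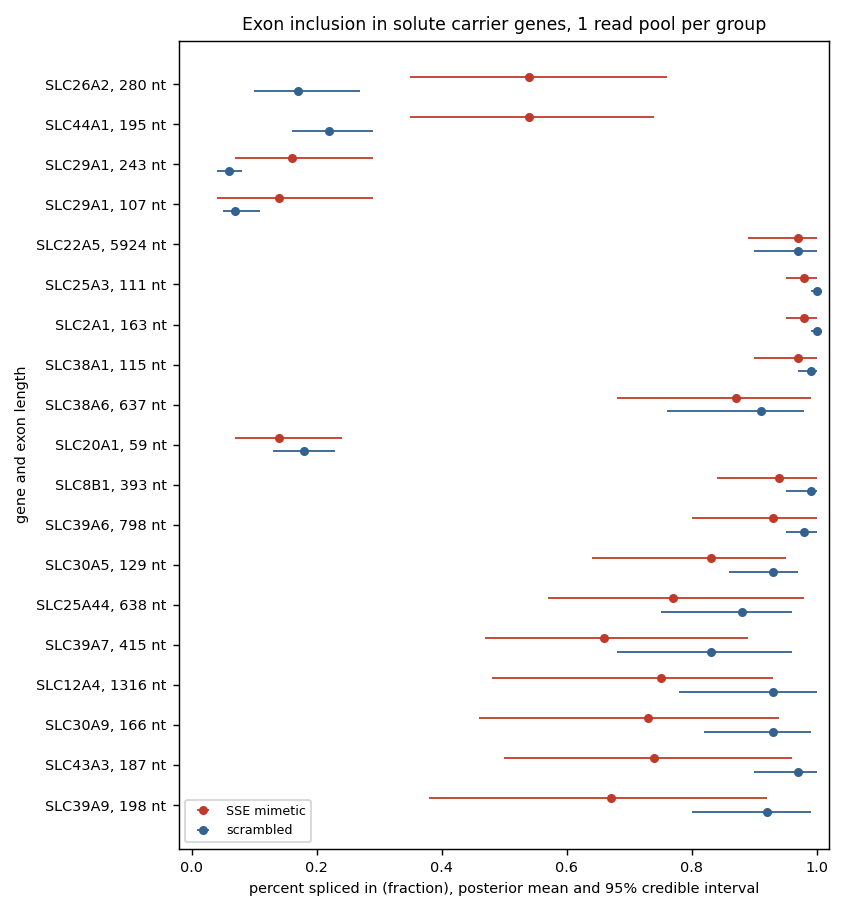
Ψ (x axis, fraction) with its 95% credible interval in the SSE mimetic pool (red, upper point of each pair) and the scrambled pool (blue, lower point) for 19 SLC exons that were called or were the best covered, in order of their difference. The intervals are apart for SLC26A2 and SLC44A1 and overlap or meet for the others, and the intervals are wider in SSE mimetic cells.

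The median difference across the 102 tested exons was -0.03, with quartiles at -0.0775 and 0.03. Over all tested exons it was also -0.03, with quartiles at -0.09 and 0.03. Differences were below 0 in 63 exons, above 0 in 35 and at 0 in 4. With the scrambled reads reduced to the SSE mimetic number, the recomputed median was -0.000546, with 52 exons below 0 and 48 above, and over all tested exons it was 0.00324. The median Ψ was 0.805 in SSE mimetic cells and 0.88 in scrambled cells, and for all exons 0.82 in SSE mimetic cells and 0.89 in scrambled cells. SLC exons were read less deeply than the average tested exon, with a median of 16.5 isoform-specific reads in SSE mimetic cells and 50.5 in scrambled cells. For all tested exons these were 19 in SSE mimetic cells and 78 in scrambled cells. Their median interval width was 0.38 in SSE mimetic cells and 0.21 in scrambled cells. A difference of 0.1 or more was seen in 39 exons (38.2%, against 36.9% of all), of which 2 were called. The highest Bayes factor among the 100 exons not called was 4.98, and 90 of them had one below 1. Of these, 10 had one below 0.1. Not being called does not by itself show that an exon is used alike.

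The list held 67 coding exons (65.7%, against 66.1% of all), 15 exons of the 5′ UTR (14.7%, against 6.37%), 11 of transcripts marked for decay (10.8%, against 11.3%) and 9 of noncoding transcripts (8.82%, against 12.5%). The median difference was -0.06 for coding exons, 0.03 for 5′ UTR exons, 0.03 for decay exons and 0.01 for noncoding ones. Over all tested exons those medians were -0.05, 0.03, 0.03 and 0.01, so the order was not particular to solute carriers. No coding SLC exon was called, and over all tested coding exons 1.25% were called higher and 1.12% lower, so that a count of 0 of 67 lies near the background. Exons with a mean Ψ of 0.1 to 0.5 had a median difference of 0.10 (11 exons, both called ones among them). For a mean of 0.5 to 0.9 it was -0.07 (57 exons). Over all tested exons these medians were 0.13, with 167 of 924 exons called higher, and -0.06. Lengths ran from 57 to 5924 nt with a median of 166, and 35 exons were whole multiples of 3 (34.3%, against 41.3% of all).

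The reading frame could be carried from the upstream coding exon into the skipped one, in a single way, for 54 coding exons, 10 decay exons, 2 of the 5′ UTR exons and 6 noncoding exons. A stop codon in that frame was found in 6 of the coding exons, 8 of the decay exons, 2 of the 5′ UTR exons and 5 of the noncoding exons. The SLC44A1 exon is 1 of those 5. The 99 nt and 102 nt forms of an SLC25A6 exon, also among them, overlap and hold the same stop codon. This describes the annotated sequence, and protein was not measured.

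Skipping was seldom seen directly. In 58 of the 102 exons (56.9%, against 54.8% of all) no skipping read was found in either pool, and Fisher's exact test cannot pass there. These 58 exons had a median difference of -0.05, and the 44 with a skipping read had 0.02. The medians for all tested exons were -0.06 without a skipping read and 0.01 with one. Inclusion reads made up a larger share in SSE mimetic cells in 29 exons, a smaller one in 12 and an equal one in 61. Among all 8228 tested exons the share was larger in 2548, smaller in 972 and equal in 4708. The excess of larger shares was thus not particular to solute carriers. Summed over the tested SLC exons, inclusion reads were 2245 in SSE mimetic cells and 7682 in scrambled cells, a ratio of 3.42 (scrambled over SSE mimetic). Skipping reads were 246 in SSE mimetic cells and 1369 in scrambled cells, a ratio of 5.57. Reads of neither isoform were 55774 in SSE mimetic cells and 95402 in scrambled cells, a ratio of 1.71. Over all tested exons these ratios were 4.66, 6.65 and 1.89.

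The intron level could be set for 98 of the tested SLC exons. Inclusion reads stood at a median of 3.01 times that level in SSE mimetic cells and 4.56 times in scrambled cells, and over all tested exons at 3.13 in SSE mimetic cells and 5.12 in scrambled cells. They were at or under it in 21 exons in SSE mimetic cells and in 17 in scrambled cells. In 13 exons (13.3%, against 12.8% of all) this held in both pools, SLC26A2, the 372 nt SLC4A7 exon and SLC39A7 among them. In 19 exons inclusion reads were at least 5 times the level in both pools, and 0 of these were called. Of all tested exons past the same level, 2.04% were called. For SLC39A7 they were 0.813 times the level in SSE mimetic cells and 0.839 times in scrambled cells, beside introns of 303 and 88 nt, which leave little length to set it. Reads of other exons inside an intron also count towards the level.

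**Figure D5:**
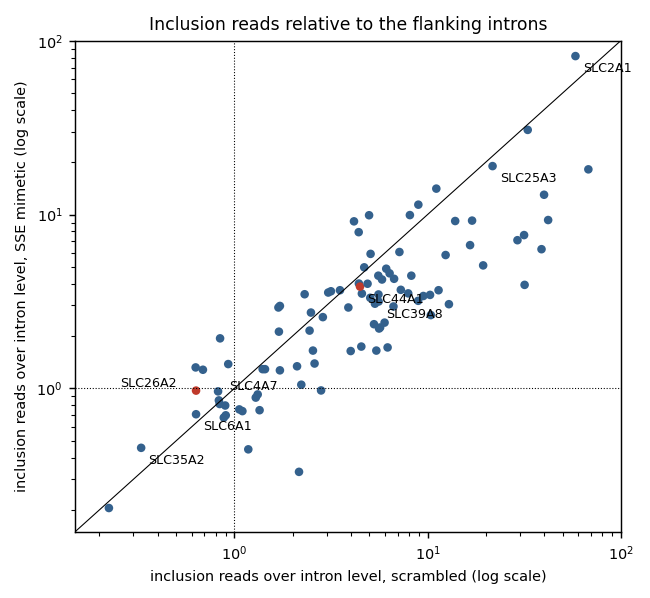
Inclusion reads over the intron level in SSE mimetic cells (y axis) and in scrambled cells (x axis), both on log scales, for tested SLC exons with inclusion reads in both pools. Dotted lines mark a ratio of 1 and the diagonal marks equal ratios; red points are the called exons, SLC26A2 in the lower left at 0.971 in SSE mimetic cells and 0.633 in scrambled cells, and SLC44A1 at 3.85 in SSE mimetic cells and 4.47 in scrambled cells.

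The 144 exons that were not tested fell short of reads in the SSE mimetic pool alone (64 exons) or in both pools (80 exons), and never in the scrambled pool alone. Their differences ran from -0.44 to 0.46, their highest Bayes factor was 3.68, and 24 had no isoform-specific read in SSE mimetic cells. Just inside the minimum, SLC25A16 had 10 isoform-specific reads in SSE mimetic cells and 51 in scrambled cells, and a Ψ of 0.70 (0.41 to 0.93) in SSE mimetic cells and 0.96 (0.83 to 1.0) in scrambled cells. The 113 nt SLC7A6 exon had 10 such reads in SSE mimetic cells and 48 in scrambled cells, and a Ψ of 0.23 (0.08 to 0.47) in SSE mimetic cells and 0.24 (0.14 to 0.35) in scrambled cells. Just outside it, a 117 nt exon of SLC30A9 had 9 in SSE mimetic cells and 57 in scrambled cells, and a 141 nt exon of SLC3A2 had 9 in SSE mimetic cells and 43 in scrambled cells.

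Other transport genes, taken from lists of ATP-binding cassette transporters, P-type and V-type ATPases, organic anion SLCO transporters, MFSD genes, and ancillary and pyruvate carriers, gave 51 tested exons in 32 genes. Of these 1 was called higher, 0 lower and 50 were not called, with a median difference of -0.03. Among all tested exons 3.09% were called higher and 0.887% lower, so these counts lie near the background. Lists of ABCG transporters and chloride channels held 0 tested exons. The called exon lies in ATP2C1, the calcium and manganese pump of the Golgi, at chr3:130979249-130979419. It had 39 inclusion, 0 skipping and 15 shared reads in SSE mimetic cells, and 100, 13 and 93 in scrambled cells. Its Ψ was 0.92 (0.81 to 0.98) in SSE mimetic cells and 0.63 (0.51 to 0.75) in scrambled cells, with a Bayes factor of 16.8. The adjusted Fisher's exact p was 0.539, and with the scrambled reads reduced to the SSE mimetic number the Bayes factor was 6.57, so that it was not called.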

How the data were processed

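Cassette exons were measured by RNA sequencing in MDA-LM2 cells, with 2 SSE mimetic and 2 scrambled samples. Per the labels' protocols, total RNA was DNase-treated on columns and libraries were made with ScriptSeq v2. Per the submitters' processing notes, STAR 2.7 and hg38 were used. Per the file headers, the authors' MISO tables give 1 summary per group and 1 comparison; for the pooling step, the method is not given in the sources used here. Ψ as deposited is a fraction. The difference is a score deposited by the authors, Ψ in SSE mimetic minus scrambled cells, the deposited Bayes factor is a ratio, and the deposited read counts are given per isoform class. Separate cultures are not named in the labels.

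Events were matched to GENCODE release 29 by coordinates, and 1 event was kept per skipped exon, that with the most isoform-specific reads. Fisher's exact tests were two-sided, with Benjamini-Hochberg adjustment over all 8228 tested exons at 0.05 (scipy 1.17.1, statsmodels 0.14.6). Binomial intervals are exact (Clopper-Pearson, 95%). All intervals reflect counting error alone, without spread between replicates, since each group is 1 pooled read set. PCR copies could not be told from separate molecules, so the counting error may be larger than the intervals show. A 2-isoform likelihood was recomputed on a grid, with a read length of 76 nt chosen among 5 lengths because it came closest to the deposited Ψ, so its closeness to the deposited calls is partly built in. It used the deposited reads, those left once the intron read density was subtracted, or thinned scrambled reads. Thinning scaled all scrambled read classes of an exon by the same factor and drew no reads at random. Only the likelihood without subtraction or thinning was run on simulated data, which held no intron reads, and its outcome is not given here. Named exons were those called, the 12 best covered with a mean Ψ of 0.1 to 0.9, the best covered of each class, and the nearest on each side of the read minimum. Members and lists were chosen with earlier results of these data known.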

Additional observations from a re-analysis of the deposited data

How the results depend on the processing

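The count of 2 SLC exons called higher was 2 with a Bayes factor of at least 5, a difference of at least 0.2, no read minimum, every event, genes set by the skipped exon only, inclusion shares in place of Ψ, or the 2-isoform likelihood, in each case SLC26A2 and SLC44A1. No tested SLC exon had been assigned through its flanking exons, so setting genes by the skipped exon only could not change the count. It was 0 with a Bayes factor of at least 100, 0 with Fisher's exact test in place of the Bayes factor, 0 with thinned scrambled reads, and 1 (SLC44A1) with at least 20 reads. It was 3 where credible intervals had to be apart (with SLC4A7) and 3 after subtraction of intron density. After subtraction they were SLC44A1, SLC16A4 (difference 0.454) and the 523 nt SLC19A3 exon (0.722), without SLC26A2 (0.129). For SLC16A4 and SLC19A3 subtraction left no isoform-specific read in scrambled cells, so these calls set a pool against one emptied by construction. That was so in 1 pool or both for 14 of the 102 exons. The count called lower was 0 in each setting run. For thinned reads, the share of all tested exons called is not given here. Fisher's exact test passed for 0 SLC exons adjusted and, at an unadjusted p under 0.05, for 3. The median difference lay between -0.035 and -0.000546, the last with thinned reads. Among named exons, signs reversed by at least 0.005 on inclusion shares for SLC30A9 (166 nt, 0.00602), SLC7A6 (113 nt, 0.00833), SLC35B1 (93 nt, -0.026), SLC38A1 (123 nt, -0.0361), SLC3A2 (96 nt, -0.245, and 124 nt, -0.0111) and the 108 nt exon of SLC4A7 (0.018), not its 372 nt exon. With thinned reads they reversed for SLC38A6 (637 nt, 0.023) and the same SLC35B1 (-0.0251), SLC38A1 (-0.0241) and 96 nt SLC3A2 (-0.0221) exons, and for SLC7A6 with the 2-isoform likelihood (0.0197). After subtraction SLC39A7 was at 0.0201, with no isoform-specific read left in either pool, which gives no direction. A further 5 values of the other sign, in 5 named exons, lay within 0.005 of 0. The cause was not tested. Leaving out replicates was not run, because the samples of each group are pooled. No paired analysis was possible because the tables carry no value per replicate. Of the 144 untested exons, 64 lacked depth in the SSE mimetic pool alone and 80 in both.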
